A study of Rattus norvegicus with 2 samples.

Results

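The genes described here encode enzymes and membrane proteins of the lysosome, and their transcripts were measured in rat urine after obstruction of a ureter. They were defined by a list of 33 gene symbols. Of these, 32 were found among the 16484 features with a number-only NCBI gene ID in a table of 113011 features, and Naglu was not found. Urine RNA was sequenced in 2 libraries, 1 labelled WT and 1 labelled UUO. All rats were Sprague Dawley, 8 weeks old. The UUO animals had the right ureter tied off (unilateral ureteral obstruction, a surgical model of kidney scarring), while the WT animals had a sham operation without the tie, and urine was drawn from the ureter by catheter 2 weeks later in both. How many rats stand behind a library is not stated. With 1 library per group no difference has a replicate check, no error could be given, and no test between the groups was possible.

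Lysosomes are acidic organelles in which proteins, sugar chains and lipids are taken apart. Soluble hydrolases reach them from the Golgi apparatus, mostly on mannose 6-phosphate receptors, and a proton pump keeps the lumen acidic. Proximal tubule cells of the kidney, which take up filtered protein, and macrophages, which take up debris, are known for abundant lysosomes. Many lysosomal genes share a promoter element, named CLEAR, that is bound by the transcription factor TFEB.

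Levels are given as FPKM, the fragments counted on a gene per kilobase of its transcript, scaled by the size of the library, so that genes of different length can be set side by side. A change is given as the difference of log2(FPKM + 1), UUO minus WT, a scale that understates the change of low genes. A gene was counted if its FPKM was at least 1 in either library, and was called higher or lower if this difference was at least 1 in size, the 2-fold limit. From the steps between the FPKM values of assembled loci, a single fragment on 1000 bases was worth 0.542 FPKM in the WT library and 0.496 FPKM in the UUO library. A gene listed at 0 gets no fold change here, since a 0 can be a failed estimate. Even Gapdh, a glycolysis gene of every cell, stood at only 0.406 FPKM in the WT library and 0.367 in the UUO library. The columns of the table carry abbreviated condition names, and each direction rests on reading them as UUO and WT.

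Promoter sequences of RefSeq (GRCr8 assembly) were found for 28 of the 33 genes, each from 250 bases before to 50 bases after the start of transcription. The 6-base core CACGTG of the CLEAR element, which reads the same on both strands, stood in 4 of these 28 promoters, against 6.42% of all 33469 promoters in that collection. With T before and A after it, the core extends to TCACGTGA, again its own reverse complement, and this stood in 3 of 28 against 0.777% of all. The motifs were not particular to these genes, since in 84 promoters of other genes of the lysosomal system the core stood in 21.4% and the 8 bases in 8.33%. The carriers of the 8 bases were Ctsd, Lamp1 and Mcoln1, and Glb1 carried the core alone. The following stretches are shown because these 4 genes took different courses in urine, as given further on. Each is read 5′ to 3′ on the strand of its gene, with the motif in capitals.
Ctsd (chr1:206968816-206968841, minus strand): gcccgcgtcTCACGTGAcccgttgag
Lamp1 (chr16:83075113-83075138, minus strand): accctcggcTCACGTGAccggcgggc
Lamp1, a second match (chr16:83075086-83075111, minus strand): cggcactgtTCACGTGAcaggcgctg
Mcoln1 (chr12:6358252-6358277, plus strand): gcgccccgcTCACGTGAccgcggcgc
Glb1 (chr8:122963609-122963632, plus strand): ctccggagtCACGTGgcctgcaga
In Ctsd the last base of the 8-base match lay 4 bases before the start of transcription, and in Lamp1 the nearer 8-base match ended 32 bases before it. In Mcoln1 the 8-base match began at base 4 after the start. A match describes these letters only, and binding was not measured.

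Across the lysosomal genes, transcripts of the cathepsins Ctsb, Ctsl and Ctsc and of the membrane protein Lamp1 were higher in UUO urine, while most glycosidases and membrane proteins differed by less than the 2-fold limit. The FPKM of the 32 genes summed to 1168 in UUO and 570.3 in WT urine, 2.05 times apart. All 32 were counted. Of the 24 above 0 in both libraries, 7 were called higher, 1 lower and 16 neither. Among all 7784 counted genes above 0 in both libraries, 8.11% were called higher and 44.1% lower. The remaining 8 lysosomal genes were listed at 0 in WT urine and above it in UUO urine, and 0 of 32 were listed at 0 in UUO urine. Of all genes with a UUO FPKM of at least 1, 20.5% were listed at 0 in WT, and of those with a WT FPKM of at least 1, 2.13% were listed at 0 in UUO urine. With these 8 genes included, 15 of the 32 were past the limit upward and 1 downward, against 25.7% and 36.5% of all 9853 counted genes.

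**Figure D1:**
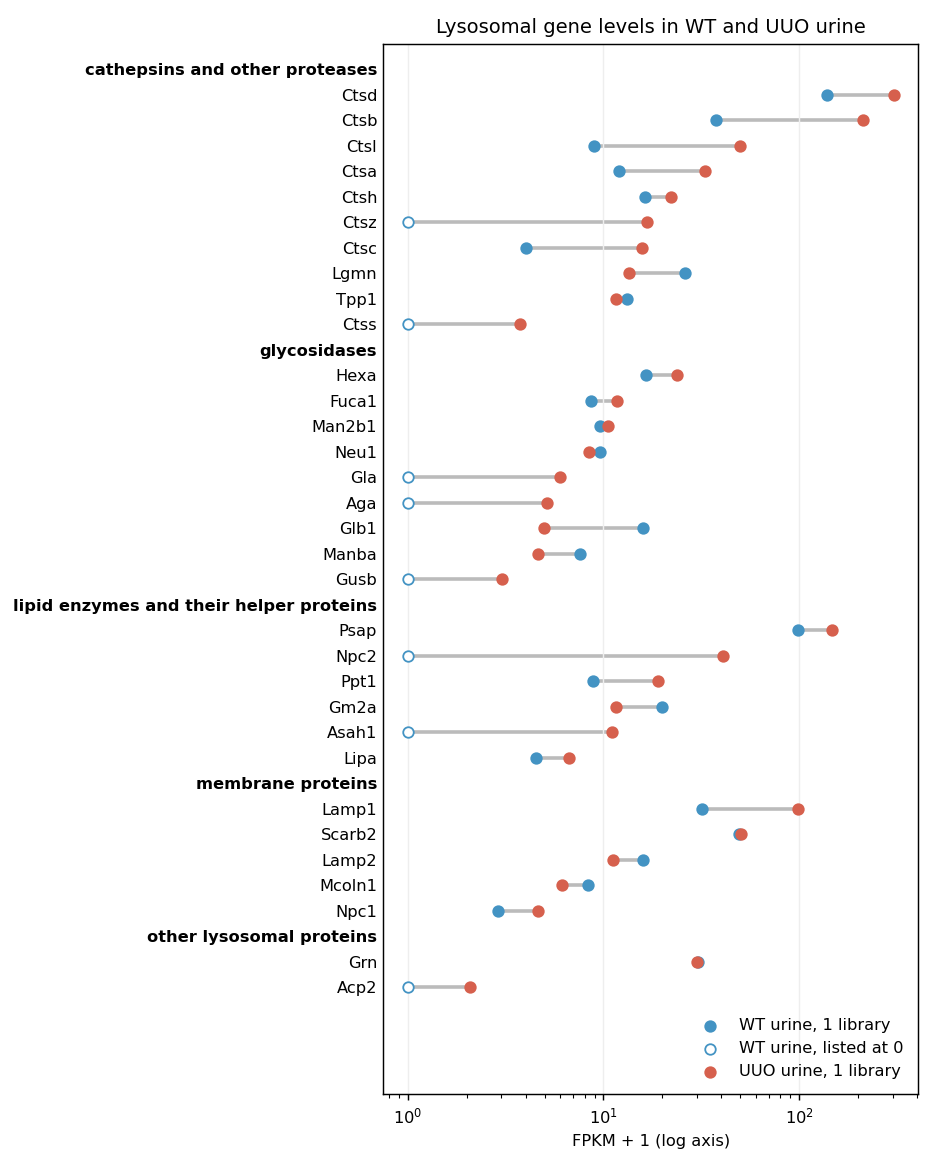
FPKM + 1 (log axis) of each of the 32 lysosomal genes in the WT library (blue) and the UUO library (red), by group, with open circles for genes listed at 0 in WT urine. The proteases Ctsd, Ctsb and Ctsl lie to the right in UUO urine, while Glb1 and Lgmn lie to the left.

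The whole table was shifted between the libraries, so the differences were also read against it. The median difference was 0.63 for the 32 lysosomal genes and -0.51 for all counted genes, and above 0 in both libraries it was 0.43 for the 24 lysosomal genes and -0.84 for all. Read against the median of all counted genes, the lysosomal median was 1.14 higher. Rescaling UUO values moved the medians upward, to 1.20 for the lysosomal genes with equal sums and to 1.45 by the median ratio, with 0.15 and 0.46 for all counted genes. By the median ratio the 7 genes Tpp1, Neu1, Manba, Gm2a, Lamp2, Mcoln1 and Grn turned from negative to positive differences below the limit. Another 6, namely Ctsh, Hexa, Fuca1, Lipa, Psap and Npc1, passed the limit upward, Psap at 1.47. By the same rescaling the share of all counted genes called higher rose from 25.7% to 39.8%. So the size of single differences depended on the scaling. The lysosomal median stayed above that of all genes, but 1 factor raises both medians together, so the rescalings are no separate check of their order.

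**Figure D2:**
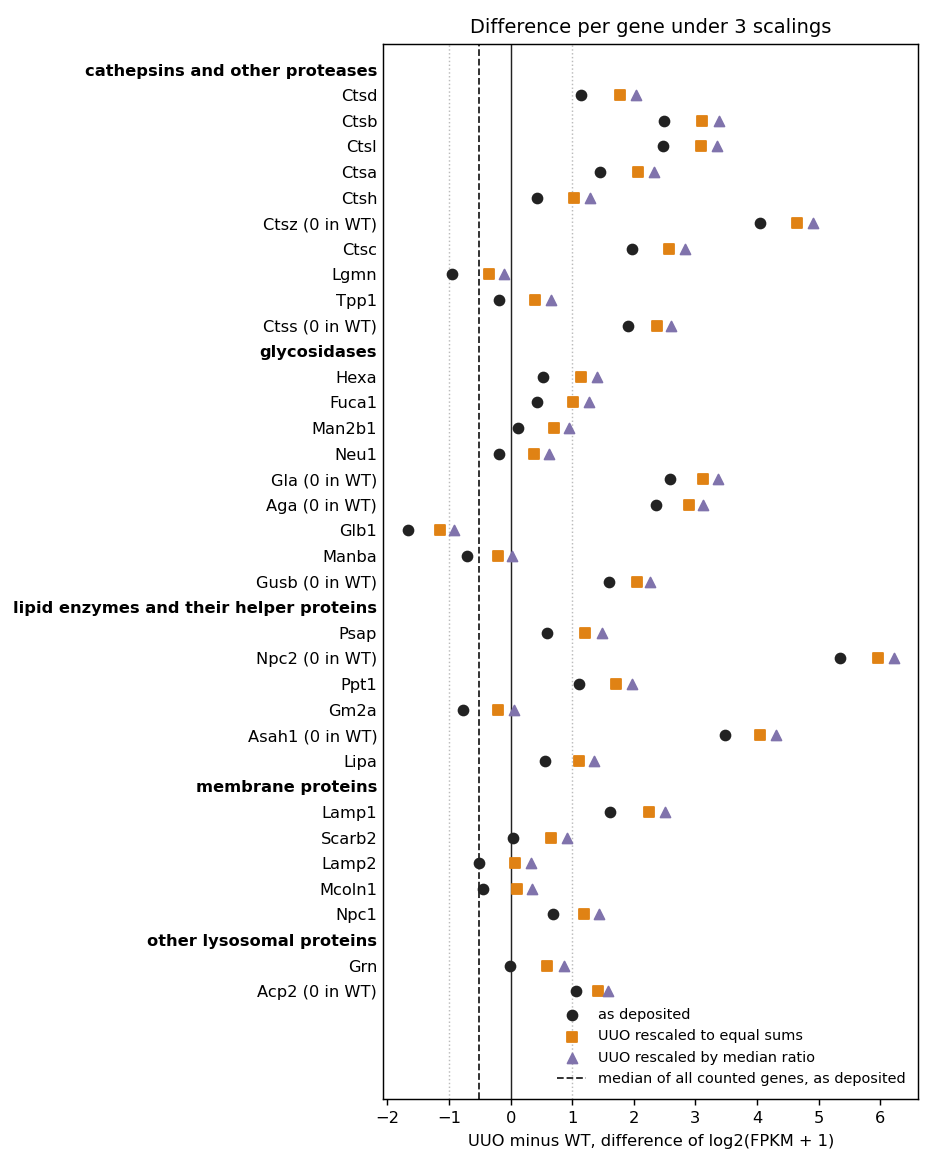
Difference of log2(FPKM + 1), UUO minus WT, per gene, as deposited (circles) and after rescaling UUO values to equal sums (squares) or by the median ratio (triangles), with dotted lines at the 2-fold limit. For the 8 genes listed at 0 in WT urine the position depends on the 1 FPKM added. The dashed line is the median of all counted genes as deposited, -0.51, and 27 of the 32 genes lie to its right as deposited.

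Rank within a library does not depend on scaling by 1 factor. By rank among all 16484 genes, 27 of the 32 lysosomal genes stood higher in UUO urine and 5 lower, namely Lgmn, Glb1, Manba, Gm2a and Mcoln1. Of the 24 above 0 in both libraries, 19 stood higher. Of all counted genes 51.8% stood higher in UUO urine by rank, and of those above 0 in both libraries 41.2%. Ranks of weakly expressed genes also move with the number of genes above 0, which was 12008 in UUO and 8024 in WT urine.

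The cathepsins and other proteases held the largest part of the summed lysosomal FPKM, 57.6% in UUO and 43.6% in WT urine. Of the 8 above 0 in both libraries 5 were called higher and 0 lower. Ctsd (chromosome 1, 222436920 to 222448805, build rn5 as for all loci below), the aspartic protease cathepsin D, was the highest lysosomal transcript in each library. It stood at 305 FPKM in UUO urine against 137 in WT urine, 2.22 times apart, with a difference of 1.14. With the noncoding and assembled entries of its locus added the difference was 0.98, just short of the limit. Ctsb (chromosome 15, 50066529 to 50355727), the cysteine protease cathepsin B, had 209.9 FPKM in UUO urine against 36.5 in WT urine, 5.75 times apart, with a difference of 2.49. It was second among the lysosomal genes in UUO urine, behind Ctsd.

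Ctsl (chromosome 17, 1860785 to 1867634), cathepsin L, another cysteine protease, had 48.7 FPKM in UUO urine against 7.97 in WT urine, 6.11 times apart, the largest ratio among the 24 genes above 0 in both libraries. Ctsc (chromosome 1, 158231475 to 158263678), a dipeptidyl peptidase that activates serine proteases of leukocytes, had 14.8 FPKM in UUO urine against 3.03 in WT urine, a difference of 1.97. Ctsa (chromosome 3, 167481579 to 167507385), the carboxypeptidase that protects beta-galactosidase and neuraminidase in a complex, had 32.0 FPKM in UUO urine against 11.1 in WT urine, a difference of 1.45. These 3 were called higher along with Ctsd and Ctsb.

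Of the other proteases 3 were within the limit. Ctsh, an aminopeptidase, had 21.0 FPKM in UUO urine against 15.3 in WT urine, and Tpp1, the tripeptidyl peptidase, 10.6 and 12.2, so neither reached the limit. Lgmn (chromosome 6, 135492937 to 135531382), the asparaginyl endopeptidase legumain that cleaves cathepsin precursors, was lower, with 12.6 FPKM in UUO urine against 25.2 in WT urine. Its ratio was 0.50, but its difference of -0.95 did not reach the limit. The median of all counted genes above 0 in both libraries was -0.84, and by the median ratio Lgmn stood at -0.10. Ctsz, a carboxypeptidase, and Ctss, a cysteine protease of antigen-presenting cells, were listed at 0 in WT urine and had an FPKM of 15.6 and 2.72 in UUO urine.

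Ratios between genes of 1 library are also free of scaling, and the pairs given here were chosen after the values were seen. Ctsb stood at 0.689 of Ctsd in UUO and 0.266 in WT urine, and Ctsl at 0.160 and 0.0580. Ctsl stood at 3.87 times Lgmn in UUO and 0.317 times in WT urine. Thus the proteases changed unequally, with Ctsb and Ctsl gaining on Ctsd. Of their inhibitors Cst6, cystatin M, stood at 15.2 FPKM in UUO urine against 7.35 in WT urine, a difference of 0.96 that is just within the limit. Cstb, the cytosolic inhibitor cystatin B, had 53.0 FPKM in UUO urine against 44.9 in WT urine, and Cst3, the secreted cystatin C, 54.9 and 53.9. Ctsb therefore stood at 3.96 times Cstb in UUO and 0.814 times in WT urine.

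**Figure D3:**
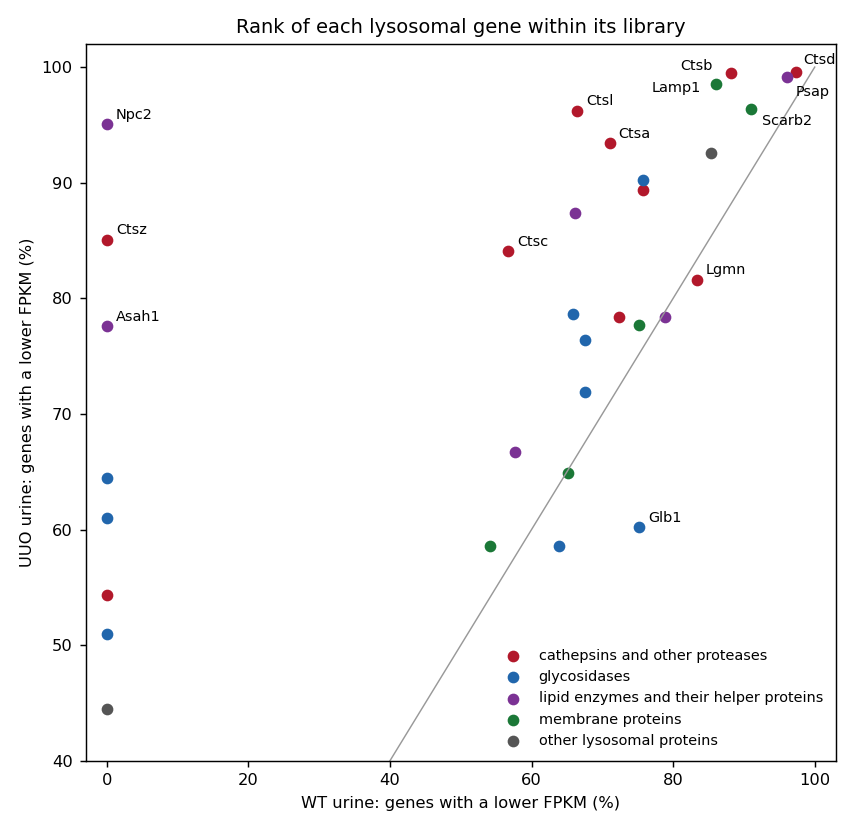
Rank of each lysosomal gene within its library, as the percentage of the 16484 genes with a lower FPKM, in WT (horizontal axis) and UUO urine (vertical axis, drawn from 40%). The line marks equal rank, and the 8 genes on the left edge are listed at 0 in WT urine. Ctsl stands at 66.4% in WT and 96.2% in UUO urine, while Glb1 stands at 75.2% and 60.2%.

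The glycosidases, which remove sugars from glycoproteins and glycolipids, were low in both libraries and had the only gene called lower. Together they summed to 69.2 FPKM in the UUO library and 61.8 in the WT library. Of the 6 above 0 in both libraries 0 were called higher and 1 lower. This was Glb1 (chromosome 8, 121752161 to 121824793), lysosomal beta-galactosidase, with 3.98 FPKM in UUO urine against 14.8 in WT urine, a difference of -1.67. It fell short of the limit after rescaling by the median ratio, at -0.92. Its partner in the complex with Ctsa, the sialidase Neu1, had an FPKM of 7.46 and 8.64. Within that complex Ctsa stood at 8.05 times Glb1 in UUO and 0.746 times in WT urine.

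Hexa, the alpha subunit of beta-hexosaminidase, was the highest glycosidase, with 22.7 FPKM in UUO urine against 15.4 in WT urine. Fuca1, a fucosidase, had 10.7 and 7.63, Man2b1, an alpha-mannosidase, 9.49 and 8.63, and Manba, the beta-mannosidase, 3.62 and 6.6. All 4 were within the limit. Gla (alpha-galactosidase A), Aga, which cleaves the bond between sugar chain and asparagine, and Gusb (beta-glucuronidase) were listed at 0 in WT urine, with an FPKM of 5.0, 4.15 and 2.04 in UUO urine. For Aga the direction was not stable. A noncoding database entry at the same locus (chromosome 16, 40992071 to 41003989), NONRATT023312, stood at 9.13 FPKM in WT and was listed at 0 in UUO urine, and with all entries of the locus summed the difference was -0.18.

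Among the lipid enzymes and their helpers, 1 of 4 genes above 0 in both libraries was called higher and 0 lower. Psap (chromosome 20, 31629573 to 31668605), the precursor of the saposins that present sphingolipids to their hydrolases, was the second highest lysosomal transcript in WT and the third in UUO urine. It stood at 146 FPKM in UUO urine against 97.1 in WT urine, 1.5 times apart, which is within the limit. Ppt1 (chromosome 5, 144329250 to 144350136), a thioesterase that removes palmitate from proteins, was called higher, with 18.1 FPKM in UUO urine against 7.80 in WT urine and a difference of 1.12. Lipa, the acid lipase for cholesteryl esters and triglycerides, had an FPKM of 5.66 and 3.53, within the limit. Gm2a, the activator protein that hands GM2 ganglioside to beta-hexosaminidase, had 10.6 in UUO and 18.9 in WT urine, a difference of -0.78. Thus Hexa stood at 2.15 times Gm2a in UUO and 0.818 times in WT urine.

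Npc2 and Asah1 had the most marked contrast of detection in this group. Npc2 (chromosome 6, 117060729 to 117081780), the soluble protein that carries cholesterol inside the lysosome, had an FPKM of 39.7 in UUO urine and was listed at 0 in WT urine, where all features of its locus summed to 0.271. Asah1 (chromosome 16, 53712187 to 53743732), acid ceramidase, had 10.1 and was listed at 0, and so were all other entries of its locus in WT urine. For a transcript of 1000 bases, 3 fragments, the limit that a count of 0 allows, correspond to an FPKM of 1.62 in WT urine, counting error alone considered. Of the 20 lysosomal genes with a UUO FPKM of at least 10, Npc2, Ctsz and Asah1 were the 3 that were listed at 0 in WT urine. Of all genes at that UUO level, 4.90% were listed at 0 in WT. For Acp2, Gusb and Ctss the UUO values of 1.08, 2.04 and 2.72 were below the limit of 1.62 or not far above it. On 2000 bases that limit would be 0.757, and the lengths of these transcripts were not available. How well a loss in WT urine could be detected for these genes therefore remains uncertain.

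The membrane proteins showed 1 higher gene and 4 within the limit. Lamp1 (chromosome 16, 81175573 to 81200585), a heavily glycosylated protein that lines the lysosomal membrane, had 97.2 FPKM in UUO urine against 31.0 in WT urine, 3.14 times apart, with a difference of 1.62. Its relative Lamp2 (chromosome X, 124573160 to 124852497), which also serves autophagy, had 10.1 and 14.8, a difference of -0.51. Lamp1 therefore stood at 9.61 times Lamp2 in UUO and 2.09 times in WT urine.

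Scarb2, an abundant protein of the lysosomal membrane, was nearly level, with 49.7 FPKM in UUO urine against 48.3 in WT urine. Mcoln1, a calcium channel of the lysosomal membrane, had 5.11 and 7.30, and Npc1, the membrane partner of Npc2 in cholesterol export, 3.62 and 1.88. Of the 4 genes with the promoter motifs shown above, Ctsd and Lamp1 were thus higher, Mcoln1 was within the limit and Glb1 was lower. Grn, the growth factor progranulin that is processed in lysosomes, had an FPKM of 29.0 and 29.3, and Acp2, lysosomal acid phosphatase, was listed at 0 in WT and had 1.08 in UUO urine.

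Of the 32 genes 0 were alone at their listed locus, which is the merged region of overlapping entries. The loci held 2 to 26 features, and 7 of the 32 genes shared theirs with another number-only gene. Over the 32 loci the median share of the locus FPKM held by the lysosomal gene was 89.3% in UUO urine, and over the 24 genes above 0 in WT it was 99.1% in WT urine. When the noncoding and assembled entries of the locus were added to each gene, and other genes left out, 14 genes were past the limit upward and 1 downward. Npc1 then passed the limit upward, at 1.46, while Ctsd at 0.98 and Aga at -0.18 no longer did. The sign changed for Neu1, Man2b1, Grn and Aga, and apart from Aga these had been within the limit.

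The wider lysosomal system was described by 109 other genes, of which 104 were found and 95 counted. Of the 75 above 0 in both libraries 9 were called higher and 25 lower, beside 8.11% and 44.1% of all such genes. A further 20 were listed at 0 in WT. Atp6ap1 and M6pr were listed on another chromosome than in RefSeq, and without them 8 were higher and 24 lower. The groups within this list differed in their medians over counted genes, from 0.88 for other hydrolases to -0.97 for genes of lysosomal control and nutrient sensing. Above 0 in both libraries these 2 medians were 0.45 and -1.28, beside -0.84 for all genes. For other membrane proteins and transporters the median was 0.62 over counted genes and -0.67 above 0 in both libraries. Of the other hydrolases 4 were called higher and 3 lower of 18 above 0 in both libraries, and 7 more were listed at 0 in WT. Ggh, which trims folate polyglutamates, and Dnase2, the acid nuclease, were listed at 0 in WT and had an FPKM of 13.1 and 6.87 in UUO urine. Galns, a sulfatase, had 1.17 in UUO and 6.53 in WT urine, and Hyal1, a hyaluronidase, 2.66 and 9.67.

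The proton pump was mixed. Of 18 subunit genes above 0 in both libraries 4 were called higher and 5 lower, beside 8.11% and 44.1% of all genes. The 11 subunits of the cytosolic V1 sector, of which 1 was listed at 0 in WT, had a median difference of -0.74. For the 7 subunits of the membrane sector V0 with an Atp6v0 symbol it was 0.14. Tcirg1, a further subunit of that sector, was not among these 7. Its difference was 1.07, and 0.10 with the other entries of its locus added. Above 0 in both libraries the V1 median was -0.79, beside -0.84 for all counted genes. Atp6v0b, of the membrane sector, and Atp6ap2, an accessory protein, were listed at 0 in WT and had an FPKM of 49.0 and 14.4 in UUO urine. Other entries of the Atp6v0b locus stood at 6.99 FPKM in WT urine, and with them added its difference fell from 5.64 to 3.04. Atp6v1c2 had 0.671 in UUO and 21.6 in WT urine, and Atp6v1a, the catalytic subunit, 8.36 and 34.1. Of 13 further membrane proteins and transporters above 0 in both libraries, 1 was called higher and 5 lower, beside the same 8.11% and 44.1%. Cd68 and Laptm5, both abundant in macrophages, were listed at 0 in WT and had 7.87 and 7.41 in UUO urine. Laptm4b had 13.5 in UUO and 84.7 in WT urine, and Mfsd8 0.808 and 7.41.

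The genes that deliver enzymes to lysosomes lay close to the whole table. Of 11 delivery genes above 0 in both libraries 0 were called higher and 5 lower, beside the 44.1% of all genes called lower, and their median difference was -0.81. Gga1, an adaptor for sorting at the Golgi, had 13.9 FPKM in UUO urine against 56.4 in WT urine, and Ap3d1, of an adaptor complex for lysosomal membrane proteins, 50.1 and 168. Gnptg and Nagpa, of the mannose 6-phosphate pathway, were listed at 0 in WT and had 5.38 and 1.05 in UUO urine. For Nagpa the sign turned when the other entries of its locus were added, with a difference of -0.79. Of 12 control and nutrient sensing genes above 0 in both libraries 0 were called higher and 7 lower, against 8.11% and 44.1% of all genes as given above. Rragd and Mtor, of the complex that senses amino acids at the lysosome, had 9.47 and 7.23 in UUO against 36.0 and 25.9 in WT urine. Lamtor3 and Lamtor1 were listed at 0 in WT and had 4.35 and 2.17 in UUO urine. Tfeb, named after its value was seen, had 4.98 in UUO and 18.3 in WT urine, a difference of -1.69. Of the 4 cathepsin inhibitors 3 were counted and 0 were past the limit.

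**Figure D4:**
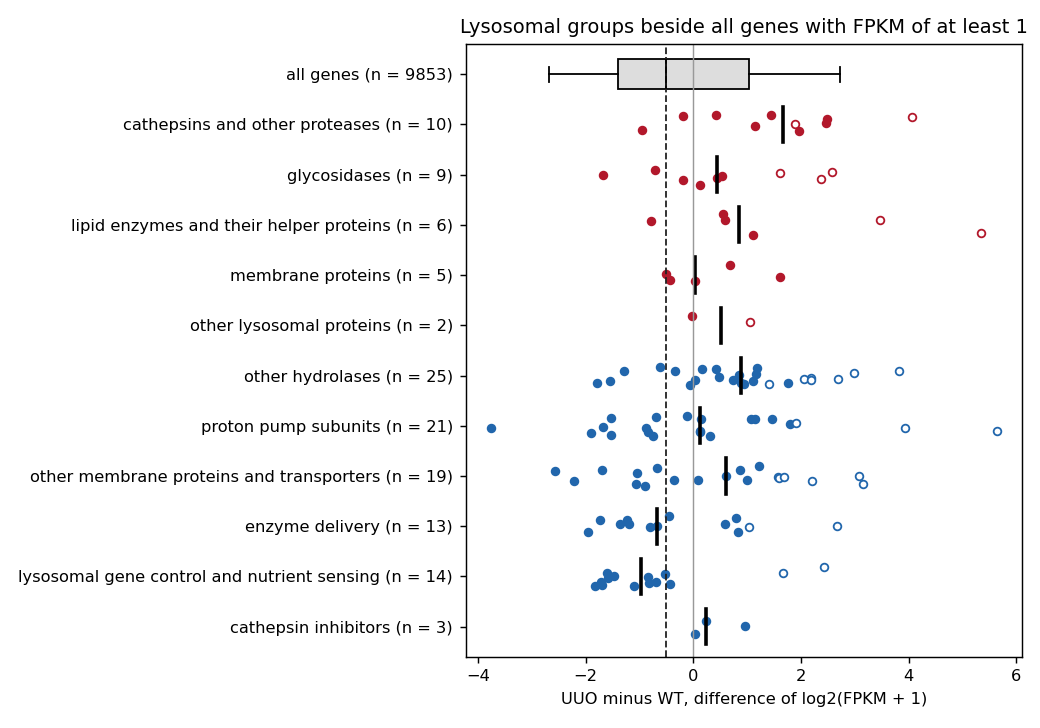
Difference of log2(FPKM + 1), UUO minus WT, for each counted gene of the lysosomal list (red) and of the other genes of the lysosomal system (blue), with open circles for genes listed at 0 in WT urine and black bars for group medians. The box spans the 25th to 75th percentile of all 9853 counted genes with whiskers at the 5th and 95th percentile, and the dashed line is their median, -0.51. The median of the cathepsins and other proteases lies at 1.67 and that of the control and nutrient sensing genes at -0.97.

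Markers of cells that could shed RNA into urine differed between the libraries in both directions. Of 14 macrophage and leukocyte genes 12 were counted. Of these 10 were past the limit upward and 0 downward, against 25.7% and 36.5% of all counted genes. Together the 14 summed to 198 FPKM in the UUO library and 21.0 in the WT library. Much of the UUO sum came from S100a9 with 71.7 and S100a8 with 27.0. Cd14 went the other way within the limit, with 1.31 in UUO and 2.05 in WT urine. Listed at 0 in WT urine were 10 of them, among them the defining genes Ptprc, Csf1r, Itgam and Adgre1, which had an FPKM of 3.33, 0.935, 1.63 and 0.536 in UUO urine. Of 10 proximal tubule genes 9 were past the limit downward, and their sum was 287 in UUO and 1097 in WT urine. The sum of 8 urothelial genes was 2528 and 2062, that of 8 genes of the loop, distal tubule and collecting duct 252 and 225.5, and that of 5 red cell genes 86827 and 3074. The 5 red cell genes held a large part of the summed FPKM of all number-only genes in UUO urine, which was 271350. FPKM is divided by transcript length, so this is not their share of the fragments. Without 10 haemoglobin genes the lysosomal genes held 0.639% of the summed FPKM of all number-only genes in UUO and 0.171% in WT urine, and with them 0.430% and 0.169%. The part of these cells in the lysosomal values was not tested. In such a mixed sample, fewer cells of a type and less RNA per cell cannot be told apart.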

How the data were processed

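Urine RNA of 1 WT and 1 UUO library was analysed. Per the submitters' processing notes, reads were aligned to build rn5 with TopHat2 2.0.9 and Bowtie2 2.0.6, and Cufflinks and Cuffdiff 2.1.1 were applied. The authors deposited 1 FPKM value per feature and library. The library total behind this scaling is not given in the sources used here. The authors' log2 ratios, test statistics, p-values and q-values are part of the deposited table and were not used. Its conditions, abbreviated UrRf and Urc, were read as UUO and WT from the series title and from the headings of the study's urine lists. Values were read with Python 3.11.15 and pandas 2.3.3.

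Symbols were taken from RefSeq (GRCr8), which matched 16329 of 16484 number-only IDs. The lysosomal genes, the other lists and the settings were chosen with earlier results of these data known. All 33 lysosomal genes were to be named, and of each further group the 2 genes past the limit with the greatest difference in each direction. Tfeb, Tcirg1, Cstb, Cst3, Cst6, Atp6ap1, M6pr, genes of the markers and features sharing a locus were named after their values were seen.

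Depth was approached through assembled features alone at their locus. Of 186 such values in WT and 3530 in UUO urine, 94.6% and 99.5% came within 0.1 of a whole number of fragments at normalising totals of 2118000 and 2445000, by a fit tested on simulated data. These limits cover counting error only. The rescalings multiplied UUO values by 1.54 (equal sums of FPKM), 1.86 (median ratio of genes with FPKM of at least 1 in both libraries) or 1.83 (equal 75th percentiles). No test was made, since each group has 1 library.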

Additional observations from a re-analysis of the deposited data

How the results depend on the processing

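No paired analysis was possible because a single library stands for each group, and none could be left out. The 40 results were recomputed under 11 alternatives, 2 of them chosen after seeing the data (the locus without other genes, and genes above 0 in both libraries). Counts within 1.5 times, and differences of unchanged sign on the same side of 1, were taken as unchanged. No gene was alone at its locus, so that alternative gave no value.

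The number of genes called higher was 15 in the report, 7 with a pseudocount of 10, 7 with a 4-fold limit and 7 among genes above 0 in both libraries. The 1 gene called lower, Glb1, was lost, leaving 0, with a pseudocount of 10, a 4-fold limit, the median ratio and the 75th percentile. The median of all 32 genes passed 1 after rescaling, at 1.20 with equal sums, 1.45 with the median ratio and 1.43 when 75th percentiles were made equal. In the same order the medians were 1.02, 1.27 and 1.25 for glycosidases, 1.46, 1.73 and 1.70 for lipid enzymes and helpers, and 1.004, 1.22 and 1.20 for Acp2 with Grn. Each rescaling raises all UUO values by 1 factor. The protease median was 0.962 with a pseudocount of 10, and the median of Acp2 with Grn 1.77 with one of 0.1. With FPKM of at least 5 the glycosidase median was -0.0333, the membrane protein median -0.20 and Grn alone -0.0146. Above 0 in both libraries the first and last were the same, since fewer genes enter. For Aga the sign turned, to -0.183, with all features of the locus added, with or without other genes. Of 306 recomputed differences of single genes, 246 were unchanged, 58 moved and 2 reversed. The unchanged ones include those of alternatives that only select genes, which cannot alter the difference of a gene. Such values were 32 with no filter, 26 with FPKM of at least 5 and 24 above 0 in both libraries.

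Depth limits the genes listed at 0 in WT urine, since 3 fragments on 2000 bases would still give an FPKM of 0.757 there.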

Other observations

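Other transcripts at the loci of lysosomal genes took their own course. All values here are FPKM, and these features were chosen after their values were seen. At the locus of Ctsb lies Fdft1, squalene synthase of the cholesterol pathway, with 16.9 in UUO and 77.4 in WT urine, the opposite direction to Ctsb. At the locus of Lamp2 lies Ndufa1, a subunit of respiratory complex I, with 104.7 in UUO and 52.5 in WT urine, while Lamp2 was within the 2-fold limit. Next to Npc1, the lysosomal trafficking gene Rmc1 had 3.36 and 8.28. Nelfcd, at the locus of Ctsz, had 9.34 in UUO and 3.84 in WT urine, while Ctsz itself was listed at 0 in WT.

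Noncoding database entries at the locus of Ctsd were divided. NONRATT006780 had 4.20 in UUO and 21.2 in WT urine, while NONRATT006783 had 9.93 and 0.644, so that neither followed the ratio of Ctsd. At the locus of Lamp1, NONRATT023644 had 12.4 in UUO urine and was listed at 0 in WT. At the locus of Man2b1, NONRATT027323 was listed at 0 in UUO and had 4.24 in WT urine. These entries overlap the coding genes, so the division of reads between them is uncertain.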
